A study of Mus musculus with 7 samples.

Results

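The Mrc1 C1q macrophages were 4694 of the 33136 tumor and host cells that passed the cell filter (at least 500 genes and at most 10% of unique molecular identifiers, UMIs, from mitochondrial genes), in 7 single-cell libraries with 39537 deposited cells. They were selected on their own transcripts. A member had at least 2 UMIs of Csf1r plus Adgre1, at least 2 UMIs of Mrc1 per 10000 UMIs of the cell (CP10K), at least 10 CP10K of C1qa, C1qb and C1qc together, and fewer than 3 Cxcl9 UMIs. It had no UMI of Ly6c2, Chil3, Slfn4, Atp6v0d2, Mki67, Top2a, Cd3d, Cd3e or Cd3g and at most 1 UMI of the tumor genes Tafa1, Unc5c and Col11a1. The level of these genes is therefore a property of the choice and is given below as a description only.

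The tumors grew from JW23.3, a male mouse line of malignant peripheral nerve sheath tumor with a mutation of Nf1, under the skin of female wildtype C57/B6 mice aged 5 to 6 weeks. In the irradiated group (n = 4 tumors) the site received focal radiation as 5 daily fractions of 2 Gy from day 7 after implantation, and the control group (n = 3 tumors) was not irradiated. All tumors were taken on day 21, dissociated with papain and sequenced as 1 library per tumor, so the tumor is the replicate. A single cell line and a subcutaneous site limit both groups as a model, and the intact hosts supplied all of the macrophages described here.

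Tissue macrophages recognize and clear dying cells, debris and complement-coated material. Mrc1 encodes the mannose receptor CD206, an endocytic receptor for glycoproteins, and C1qa, C1qb and C1qc encode the chains of C1q, the first component of the classical complement pathway, which macrophages make themselves. Macrophages that carry both are commonly compared with the resident macrophages of connective tissue, whereas cells freshly derived from blood monocytes carry Ly6c2 and interferon-responsive genes.

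The regulatory windows of genes that define or mark these cells are shown because PU.1 and MAF-family factors, which bind such windows in macrophages generally, have short core motifs. Each window is the 250 bases before the annotated start, written 5′ to 3′ on the strand of the gene, from RefSeq on build GRCm38.p6. Capitals mark GAGGAA, a PU.1-type core, and TGCTGA, a core of MAF-type sites, on either strand (as TTCCTC or TCAGCA when reversed). They lie at chr4:136886201-136886450, minus strand, for C1qb and chr4:136892915-136893164, minus strand, for C1qc, with Mrc1 at chr2:14229164-14229413, plus strand, Fcrls at chr3:87263525-87263774, minus strand, F13a1 at chr13:37050245-37050494, minus strand and Folr2 at chr7:101857191-101857440, minus strand.
C1qb: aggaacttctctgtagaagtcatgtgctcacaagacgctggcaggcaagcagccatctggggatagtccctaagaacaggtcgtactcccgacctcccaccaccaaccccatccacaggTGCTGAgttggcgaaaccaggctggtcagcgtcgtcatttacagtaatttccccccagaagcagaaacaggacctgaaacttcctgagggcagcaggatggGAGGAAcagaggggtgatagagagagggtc
C1qc: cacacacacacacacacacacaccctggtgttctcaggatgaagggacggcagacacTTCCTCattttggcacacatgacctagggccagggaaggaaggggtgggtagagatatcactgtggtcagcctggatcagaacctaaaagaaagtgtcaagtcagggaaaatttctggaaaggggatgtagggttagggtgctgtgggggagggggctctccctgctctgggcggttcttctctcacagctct
Mrc1: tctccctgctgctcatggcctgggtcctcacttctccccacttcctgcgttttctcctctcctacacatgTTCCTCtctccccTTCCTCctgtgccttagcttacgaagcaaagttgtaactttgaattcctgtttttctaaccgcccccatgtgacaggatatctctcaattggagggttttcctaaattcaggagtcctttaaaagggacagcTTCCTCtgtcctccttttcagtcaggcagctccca
Fcrls: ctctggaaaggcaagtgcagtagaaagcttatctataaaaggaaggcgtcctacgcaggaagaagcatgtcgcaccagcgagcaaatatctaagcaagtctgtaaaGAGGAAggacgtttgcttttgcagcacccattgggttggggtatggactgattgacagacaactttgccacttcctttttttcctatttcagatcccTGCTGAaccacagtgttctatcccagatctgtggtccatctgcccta
F13a1: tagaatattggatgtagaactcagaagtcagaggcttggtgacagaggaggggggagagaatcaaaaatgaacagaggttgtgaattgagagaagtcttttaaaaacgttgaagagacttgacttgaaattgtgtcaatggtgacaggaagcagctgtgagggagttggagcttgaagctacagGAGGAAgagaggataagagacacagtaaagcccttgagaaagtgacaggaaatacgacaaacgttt
Folr2: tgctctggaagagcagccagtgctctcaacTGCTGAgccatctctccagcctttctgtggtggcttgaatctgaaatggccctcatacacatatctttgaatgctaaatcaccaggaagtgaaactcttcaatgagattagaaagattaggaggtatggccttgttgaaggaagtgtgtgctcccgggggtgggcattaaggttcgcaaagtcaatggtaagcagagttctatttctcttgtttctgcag
GAGGAA occurred in 23.1% of the 27025 upstream windows in the table and TGCTGA in 15.8%. Of the 19 tissue-resident macrophage genes with a window, 11 held GAGGAA (57.9%) and 6 held TGCTGA (31.6%). Among the 308 windows of genes called higher in members than in Mrc1-negative C1q cells (below), the shares were 25.3% and 15.3%. Over the 6587 windows of all genes tested in that comparison they were 23.0% and 11.6%. A match is a run of letters and not a binding site, and no factor binding was measured.

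The members of irradiated tumors 1 to 4 numbered 1068, 213, 316 and 164, and those of control tumors 1 to 3 numbered 356, 1232 and 1345. The labels give no batch. From the data, the libraries were divided into 2 sets, called technical sets here, with irradiated 1, control 2 and control 3 in set 1 and irradiated 2 to 4 and control 1 in set 2. The division used cell number, depth, mitochondrial share and stress transcripts. The sets did not overlap in the first 3 but did in stress transcripts, and set 2 holds 3 of the 4 irradiated tumors, so set and treatment are partly confounded. A member held a median of 4165.5 to 5903.5 UMIs in set 1 and of 10218.5 to 11468.5 UMIs in set 2. A zero-UMI condition removes more cells where cells are deeper, and sets are given beside each result they touch. Only 2 barcodes were held by members of more than 1 library, and 127 by cells passing the filter in more than 1 library.

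The macrophage label was checked against marker genes. Each of the 15 macrophage identity genes, such as Cd68, Lyz2 and Fcer1g, was found at 0.1 CP10K or more in all 7 tumors. The summed level of 10 T and NK cell markers was 0.01119 to 0.09446 CP10K, and that of 8 dendritic cell markers 0.1939 to 0.3459 CP10K. The 6 granulocyte markers summed to 0.4575 to 0.613 CP10K with Ly6g at 0, the 5 B cell markers to 0.5056 to 1.015 CP10K, and the 13 tumor-cell markers to 0.8675 to 3.929 CP10K. Xist, which female host cells transcribe and the male tumor line lacks, stood at 8.50 to 11.4 CP10K in members and at 0.0360 to 0.200 CP10K in cells rich in tumor genes.

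Mrc1 was measured at 12.8, 14.4, 12.5 and 9.62 CP10K in the members of irradiated 1 to 4 and at 13.2, 13.2 and 12.3 CP10K in control 1 to 3. C1qa ran from 55.0 to 62.7 CP10K in members and from 0.225 to 0.695 CP10K in T cells of the same libraries, which should lack it and give the background level of the droplets. Apoe, the lipid carrier apolipoprotein E, ran from 140 to 186 CP10K in members and from 0.490 to 1.49 in T cells. Fcrls, an Fc receptor-like gene known from microglia and other resident macrophages, ran from 10.4 to 16.5 CP10K in members and from 0.0316 to 0.159 in T cells.

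Of genes commonly used to mark resident connective-tissue macrophages, Folr2, the folate receptor beta, was found at 1.22 to 2.28 CP10K in members. Lyve1, the hyaluronan receptor of perivascular macrophages, reached at most 0.0323 CP10K in any tumor, and Timd4, a phosphatidylserine receptor of long-lived resident macrophages, had UMIs in 1 tumor only, at 0.00403 CP10K. Cd163, the hemoglobin-haptoglobin receptor, was low at 0.0560 to 0.364 CP10K. The 14 genes of the monocyte list used below summed to 9.495 to 19.71 CP10K in members. Spp1, which encodes osteopontin, stood at 3.15 to 25.4 CP10K in members against 1.74 to 22.4 CP10K in T cells and 31.0 to 55.3 CP10K in tumor cells, and its level in members was not read as expression.

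Near the thresholds, 239 members had between 2 and 3 CP10K of Mrc1, and 192 cells failed only the Mrc1 condition with 1 to 2 CP10K. Just 6 members had under 15 CP10K of C1q, and 9 cells missed that condition alone at 5 to 10 CP10K. The condition that removed most cells by itself was that on Slfn4, a schlafen gene induced by interferon: 1095 cells met every condition but this one, against 840 for the cycling genes and 732 for Mrc1. The exclusion fell on 5.29% of the macrophage-gate cells in irradiated 1, 4.59% in control 2 and 6.61% in control 3, and on 20.02%, 18.2%, 13.8% and 19.2% in irradiated 2, 3 and 4 and control 1. Results that rest on interferon genes are therefore given with and without that condition.

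The first comparison asked whether the share of these macrophages differed between irradiated and control tumors. Members made up 16.9%, 9.22%, 10.4% and 5.59% of the cells passing the filter in irradiated 1 to 4, and 7.04%, 17.9% and 20.4% in control 1 to 3. The groups overlapped. Irradiated tumors averaged 10.53% ± 4.74 (SD, n = 4) and control tumors 15.1% ± 7.11 (SD, n = 3), which differ by -4.57 percentage points (two-sided exact permutation test, p = 0.314, smallest possible p 0.0286, p = 0.314 after Benjamini-Hochberg adjustment over both shares). Within technical set 1 the difference was -2.20 points and within set 2 it was 1.36 points, so its direction was not the same in both.

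Among the 10308 macrophage-gate cells (at least 2 Csf1r plus Adgre1 UMIs, no T cell UMI and at most 1 tumor-gene UMI), members made up 64.9%, 24.0%, 31.2% and 12.2% in irradiated 1 to 4 and 31.0%, 60.1% and 60.5% in control 1 to 3. The difference of means was -17.4 points (exact permutation p = 0.314), 4.64 points within set 1 and -8.51 points within set 2. All 3 libraries of set 1 lay above 60% and all 4 of set 2 below 32%, whatever their treatment. With the gate applied to cells thinned to 3000 UMIs, the difference was -13.9 points, and without the Slfn4 condition it was -13.2 points. For the share of all cells the same 2 settings gave -1.55 and -1.86 points. Within sets 1 and 2 the thinned gate gave 0.77 and 1.155 points for that share.

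**Figure D1:**
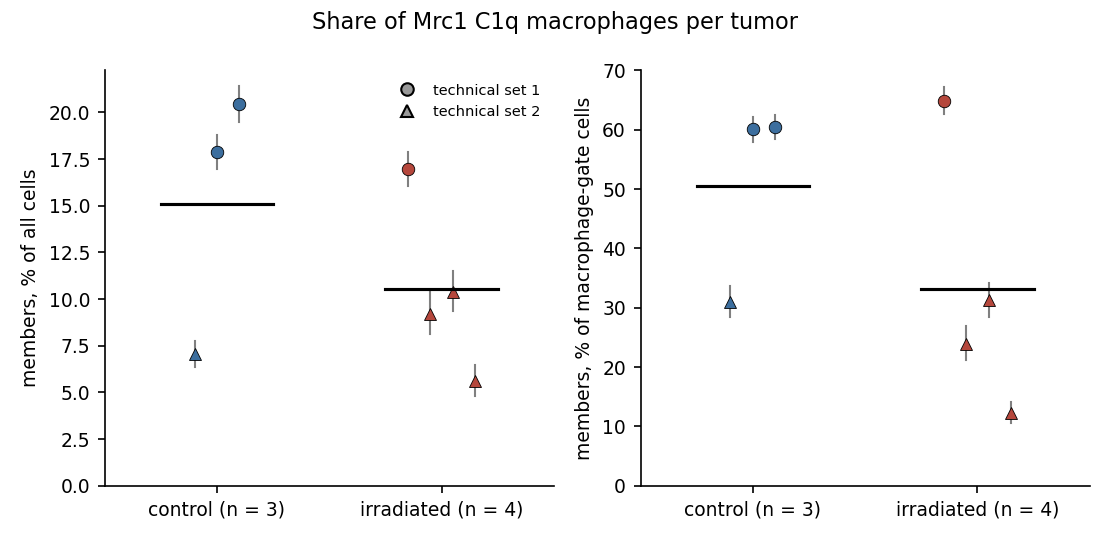
Share of Mrc1 C1q macrophages in each tumor, as a percentage of all cells passing the filter (left) and of macrophage-gate cells (right). Points are tumors, thin lines their 95% Wilson intervals (counting error only) and horizontal bars group means. Circles (set 1) lie above triangles (set 2) in both panels, and the 2 treatment groups overlap.

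The second comparison set members against cells that met every condition but had no Mrc1 UMI, the Mrc1-negative C1q cells (495 cells, 26 to 179 per tumor). UMIs were summed per tumor and given per 1000000 UMIs (CPM), and the 2 sums of a tumor were compared with edgeR's quasi-likelihood test with the tumor as a block. Members were higher for 416 of 8226 genes (5.06%) and lower for 364 (4.42%) at a Benjamini-Hochberg adjusted p under 0.05. Members were higher for 10 of 14 tissue-resident, 7 of 17 scavenger and efferocytosis and 8 of 22 lysosomal genes tested, and lower for 4 of 9 monocyte and 12 of 38 type I interferon genes. The Mrc1-negative cells were shallower, with medians of 3311 to 8074 UMIs, and restricting both to cells of 3000 to 10000 UMIs gave 278 genes higher and 234 lower of 5699.

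F13a1, the A subunit of coagulation factor XIII and a gene of resident macrophages, had the largest increase of the genes named by the rule. Its level in members was 593, 647, 547 and 392 CPM in irradiated 1 to 4 and 486, 612 and 514 CPM in control 1 to 3. In Mrc1-negative C1q cells it was 188, 8.71, 74.3 and 25.1 CPM in the irradiated and 160, 79.95 and 142 CPM in the control tumors. The ranges did not overlap, and the log2 fold change was 2.43 ± 0.36 (SE, adjusted p = 0.00723, edgeR).

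Gas6, the ligand that bridges phosphatidylserine on dying cells to the TAM receptors, was 211 to 361 CPM in members and 29.3 to 114 CPM in Mrc1-negative C1q cells, with a log2 fold change of 2.02 ± 0.15 (adjusted p = 3.9e-11, edgeR). It was higher in members in 7 of 7 tumors. Its receptor gene Mertk (1.36), the ligand Pros1 (1.14), the scavenger receptor Stab1 (1.45), the lipoprotein and C1q-associated receptor Lrp1 (1.01), the scavenger receptor Msr1 (0.71) and the cholesterol exporter Abca1 (1.199) rose with it on the log2 scale. Of the 17 scavenger and efferocytosis genes tested, 7 were higher and 0 lower, with a median log2 fold change of 0.34 beside -0.01 over all genes tested. Axl, another TAM receptor, was not called, at -0.28.

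Fcrls was 1038 to 1649 CPM in members and 155 to 820 CPM in Mrc1-negative C1q cells (log2 fold change 1.51 ± 0.18, adjusted p = 5.4e-04, edgeR), and Folr2 was 122 to 228 CPM against 23.6 to 160 CPM (1.496 ± 0.21, adjusted p = 8.3e-05). Both were higher in members within each of the 7 tumors, although the ranges of Folr2 overlapped between tumors. Cbr2 (1.91), a carbonyl reductase, Selenop (1.18), a selenium carrier, Igf1 (1.43), a growth factor, Pf4 (1.24), a chemokine, and the transcription factor gene Maf (1.08) were also called. Of 14 tissue-resident macrophage genes tested, 10 were higher and 0 lower (median 1.35), and 4 were not called, among them Ccl8 (2.08, adjusted p = 0.078), Clec10a (0.50) and Mgl2 (-0.08). Without the tumor block 6 of the 14 were called.

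Of 11 microglia-associated genes, 7 were higher in members, among them Gpr34 (1.48), P2ry12 (1.03) and Cx3cr1 (0.51), while Selplg (-0.59) was lower. The lysosomal list had 8 of 22 genes higher and 1 lower, Tfeb (-0.61), and its largest called increase was Ctsd (0.95), an aspartic protease. Remaining genes named by the rule as higher were Npl (2.09), Ctla2a (1.87), Vcam1 (1.84), Cd38 (1.79), Itsn1 (1.63), Fat3 (1.57) and Nxpe5 (1.49). Vcam1 encodes an adhesion molecule and Cd38 an enzyme that consumes NAD. Among chemokine genes, Ccl12 (1.14), Ccl7 (1.06) and Ccl2 (0.79), ligands that recruit monocytes, were called higher and Cxcl16 (-0.33) lower.

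On the lower side, AA467197 (-2.62) had the largest decrease of the genes named. Il1r2, the decoy receptor for interleukin-1, was 2.65 to 31.6 CPM in members against 17.9 to 209 CPM in Mrc1-negative C1q cells, lower in each of 7 tumors (log2 fold change -2.54 ± 0.28, adjusted p = 3.2e-06, edgeR), and lost its call with the gate on cells thinned to 3000 UMIs (-0.83, adjusted p = 0.0804). Malt1 (-1.58), Ms4a4c (-1.30), Ly6a (-1.23), S100a6 (-1.21) and Sh2d1b1 (-1.19) followed. Irf7, the interferon-induced transcription factor, was 53.8 to 150 CPM in members and 93.1 to 522 CPM in Mrc1-negative C1q cells (-1.22 ± 0.13, adjusted p = 4.3e-08), and was not called without the tumor block (-1.201, adjusted p = 0.101).

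The type I interferon list had 0 genes higher and 12 of 38 lower in members (median -0.52), and the type II list had 1 of 17 higher, Gbp7 (0.81), and 3 lower. Both cell groups were free of Slfn4 by choice. Without that condition 28 of 38 type I genes were lower (median -0.74) and 10 of 22 type II genes, and without the tumor block 3 of 38 type I genes. All 8 class II presentation genes had a fold change below 0 (median -0.87) and 3 were called, H2-Aa (-1.05), H2-Eb1 (-1.13) and H2-DMb1 (-0.66), but 1 of 8 without irradiated 1, 0 of 6 with cells of 3000 to 10000 UMIs and 0 of 8 without the tumor block.

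Lipid-associated genes moved in both directions. Trem2 (0.37), a lipid receptor, and Cd63 (0.53), a lysosomal tetraspanin, were higher in members, while Lpl (-1.55), Lgals3 (-0.99) and Cd9 (-0.71) were lower. Apoe itself was not called (0.70, adjusted p = 0.059).

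**Figure D2:**
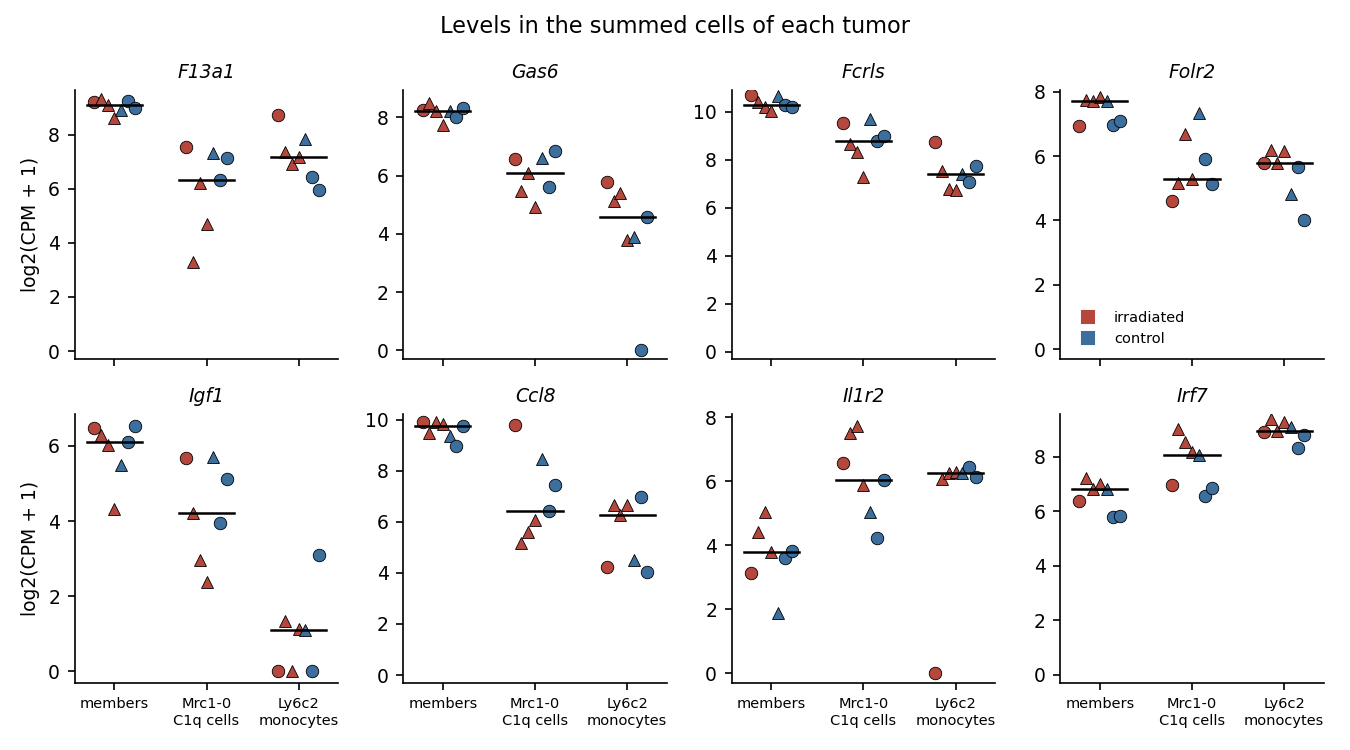
Levels of 8 genes in the summed cells of each tumor, as log2(CPM + 1), in members, Mrc1-negative C1q cells and Ly6c2 monocytes. Points are tumors (red irradiated, blue control, circles technical set 1, triangles set 2) and bars medians over the 7 tumors. Within each tumor, members stand above both other groups in F13a1, Gas6 and Fcrls and below both in Irf7. The Ly6c2 monocyte points of irradiated 1 rest on 9 cells, in which endothelial markers summed to 9.99 CP10K.

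The third comparison set members against Ly6c2 monocytes, macrophage-gate cells with at least 2 Ly6c2 UMIs and no cycling UMI (544 cells). They were few in set 1, with 9, 19 and 23 cells in irradiated 1, control 2 and control 3, and 267 came from irradiated 4. Endothelial markers summed to 9.99 CP10K in the Ly6c2 monocytes of irradiated 1 and to 0.123 to 0.535 CP10K in those of the other tumors. In members they summed to 0.0626 to 0.144 CP10K. The part of endothelial cells in the monocyte sum of irradiated 1 was not tested. Without irradiated 1, members were higher for 1589 of 9168 genes and lower for 1509. Members were higher for 1524 of 9138 genes (16.7%) and lower for 1403 (15.4%).

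Igf1 was 88.0, 77.8, 64.4 and 19.03 CPM in the members of irradiated 1 to 4 and 44.1, 68.5 and 90.8 CPM in control 1 to 3. Its monocyte level did not exceed 7.64 CPM in any tumor and was 0 in 3 tumors. The log2 fold change was 5.05 ± 0.32 (adjusted p = 3.8e-26, edgeR). Gdf15, a stress-induced cytokine of the TGF-beta family, was 75.5 to 280 CPM against 7.80 to 24.5 CPM (4.204 ± 0.19), and Gas6 was again higher (3.69).

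Ccl8, a chemokine for monocytes and lymphocytes, was 947, 706, 966 and 896 CPM in irradiated and 656, 500 and 867 CPM in control members, against 15.3 to 123 CPM in monocytes, with no overlap (3.53 ± 0.34, adjusted p = 2.0e-04, edgeR). Fat3 (5.53), Tbc1d4 (3.94), Npl (3.85) and Pmp22 (3.34) completed the increases named. Plac8, a gene of monocytes and granulocytes, had the largest decrease, 4.83 to 22.95 CPM in members against 161 to 1233 CPM in monocytes (-6.02 ± 0.15). Ifi205 (-4.21), Plcb1 (-4.19), AA467197 (-3.99), Slfn1 (-3.83) and Gpr141 (-3.73) followed.

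By list, 14 of 15 tissue-resident genes were higher and 0 lower (median 1.95, unchanged when Cd163, at 0 in all monocyte sums, was set to the limit of 3 UMIs over the group). Of 38 type I interferon genes 37 were lower and 0 higher (median -1.90), and 17 of 21 type II genes were lower. The type I count was again 37 without the Slfn4 condition, with a median of -1.30. Of 10 monocyte genes 9 were lower. Iron and heme genes were higher in 7 of 11. Of 8 class II genes 2 were lower and 0 higher (median -0.44), against 4 lower without the Slfn4 condition (median -0.68) and 6 lower with the gate on cells thinned to 3000 UMIs (median -1.08).

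**Figure D3:**
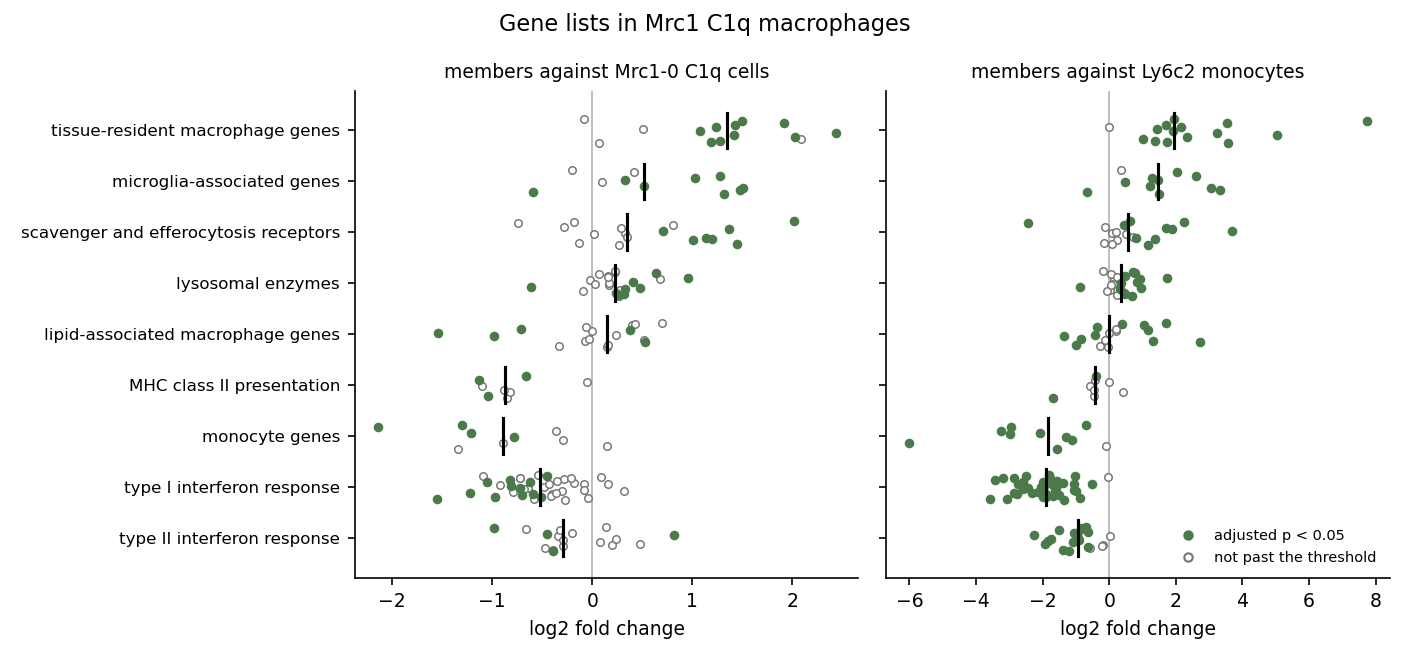
Log2 fold changes of the genes of 9 lists, members against Mrc1-negative C1q cells (left) and against Ly6c2 monocytes (right). Filled points passed an adjusted p of 0.05 in edgeR and bars are list medians. Tissue-resident genes lie to the right (medians 1.35 and 1.95) and type I interferon genes to the left (-0.52 and -1.90). The point near 8 on the right is Cd163, which had no UMI in the monocytes and whose fitted value depends on the prior count.

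Members were not uniform. To describe this at equal depth, 3873 members with at least 3000 UMIs were thinned to 3000. The 10 genes whose UMIs varied most for their mean were Cd74, Apoe, Malat1, Ccl8, H2-Eb1, H2-Aa, Spp1, Ccl4, Lyz2 and Cxcl10. The ratio of variance to mean was 35.9 for Cd74, the class II invariant chain, 31.0 for Apoe and 18.6 for Ccl8. The class II genes varied together over the cells of a tumor (Spearman's rho of H2-Eb1 with H2-Aa, median over 7 tumors 0.82), and Apoe varied with Lyz2 (0.51) and Ccl8 (0.46). These are descriptions over cells of shared libraries.

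A first axis was MHC class II, the molecules that present peptides to CD4 T cells. Members with 5 or more UMIs of H2-Aa, H2-Ab1 and H2-Eb1 together made up 48.6%, 17.9%, 12.1% and 17.9% of thinned members in irradiated 1 to 4 and 9.76%, 29.4% and 39.0% in control 1 to 3, and 32.7% to 76.8% had none. Set 1 stood above set 2 in every library (29.4% to 48.6% against 9.76% to 17.9%). Pooled, the irradiated mean was 1.93 points below the control mean, yet within set 1 irradiated 1 exceeded the controls by 14.4 points and within set 2 the irradiated tumors exceeded control 1 by 6.21 points. H2-Aa was at 0 to 2.13 CP10K in T cells and at 3.36 to 21.1 CP10K in members. The groups of cells were chosen after their values were seen and get no test.

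At equal depth, members with 5 or more class II UMIs differed from those with none in other genes, described as the log2 ratio of mean UMIs (pseudocount 0.01), median over 7 tumors. Cd74 went from 0.496 to 33.8 UMIs (6.20), H2-DMb1 (2.64) and the C-type lectin gene Mgl2 (3.07) were higher, and so were Il1b (2.02) and Il1r2 (2.86). Cbr2 (-2.16), Ctla2a (-1.88), Npl (-1.82), F13a1 (-1.51), Folr2 (-1.47) and Igf1 (-1.06) were lower in all 7 tumors. Of the 12 genes named as higher in members than in Mrc1-negative C1q cells, 10 were lower in class II members in all 7 tumors, where 6.7% of 4476 genes were lower and 4.42% higher in all 7. Of the 8 named as lower, 7 had a value and 3, Il1r2, Malt1 and Ly6a, were higher in all 7. Dendritic cell markers summed to 0.0833 to 0.333 UMIs per cell with class II and 0.0312 to 0.0891 without, and B cell markers to 0.259 to 0.386 against 0.127 to 0.264, each higher with class II in all 7 tumors. Their part in these differences was not tested.

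A second axis was Ccl8. Members with 5 or more Ccl8 UMIs made up 17.9%, 16.4%, 21.5% and 21.2% in irradiated 1 to 4 and 13.7%, 9.54% and 13.2% in control 1 to 3. Every irradiated tumor exceeded every control tumor, by 6.55 points on average within set 1 and 5.97 points within set 2, whereas the share with no Ccl8 UMI overlapped (57.4% to 66.9% against 62.4% to 69.2%). In the fit over all genes, Ccl8 did not pass the test between the groups (log2 fold change 0.36 ± 0.17, adjusted p = 1.00, edgeR). T cells held 0.0636 to 0.465 CP10K of Ccl8.

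Ccl8 members also differed in other genes. Against members with no Ccl8 UMI, Cd163 (3.07), Npl (2.95), Vcam1 (2.44), Igf1 (2.10), the complement gene C4b (1.84) and Gdf15 (1.56) were higher in all 7 tumors, and Ccr2 (-3.22), the receptor that draws monocytes into tissue, Nt5e (-2.33) and Lsp1 (-1.87) were lower in all 7. Ccr2 averaged 0.739 UMIs per cell in members without Ccl8 and 0.0962 in Ccl8 members, while Folr2 averaged 0.383 and 0.968. Of 4491 genes, 5.99% were higher and 10.2% lower in all 7 tumors. Of the 12 genes named as higher in members than in Mrc1-negative C1q cells, 9 were higher in Ccl8 members in all 7. Not all genes of resident macrophages or microglia had this direction: Cbr2 was higher in 6 and Pf4 in 5 of 7 tumors, and the microglia gene Tmem119 (-0.67) was lower in all 7. B cell markers summed to 0.0625 to 0.265 UMIs per cell in Ccl8 members and 0.169 to 0.368 in those without, lower in each tumor, and dendritic cell markers to 0.0312 to 0.114 against 0.0308 to 0.11. Their part in these differences was not tested. Before thinning, the median depth of Ccl8 members was the lower one in every tumor, from 4529.5 against 5195.5 UMIs in control 2 to 12012 against 12086 UMIs in control 1.

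**Figure D4:**
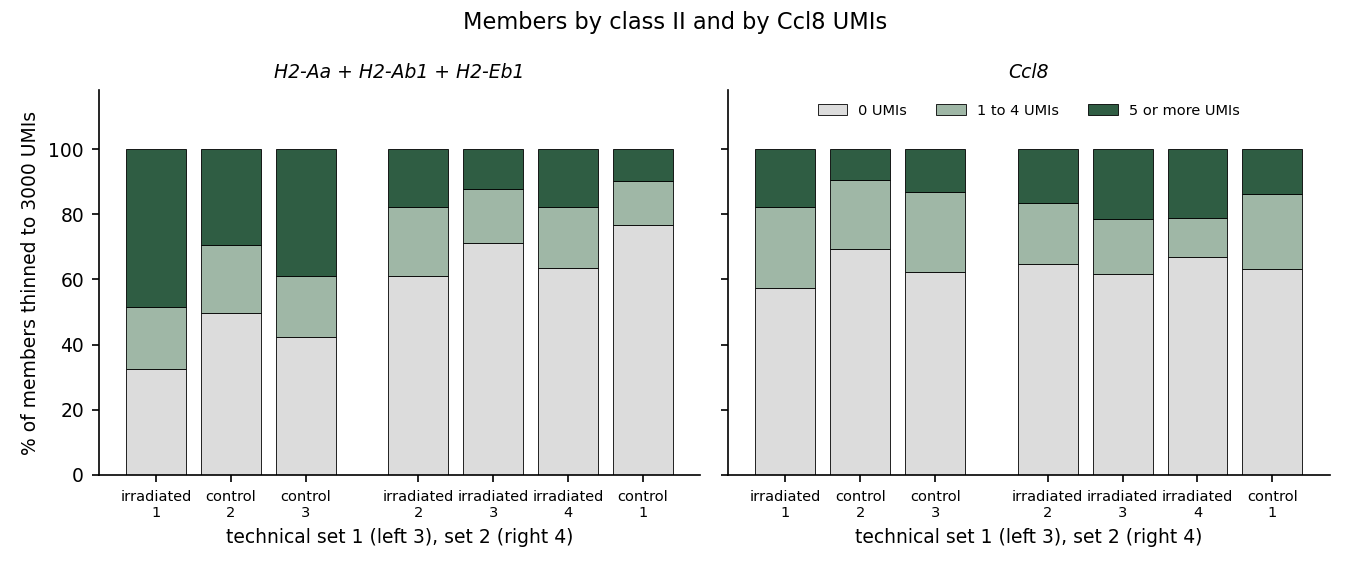
Members thinned to 3000 UMIs, grouped by UMIs of H2-Aa, H2-Ab1 and H2-Eb1 together (left) and of Ccl8 (right), as a percentage of the members of each tumor. Bars are tumors, ordered by technical set. The share with 5 or more class II UMIs is 29.4% to 48.6% in set 1 and 9.76% to 17.9% in set 2, and that with 5 or more Ccl8 UMIs is 16.4% to 21.5% in irradiated and 9.54% to 13.7% in control tumors.

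The last comparison asked which genes of the members differed between irradiated and control tumors. Of 10701 genes, 0 (0%) passed an adjusted p of 0.05 in edgeR, where 434 (4.06%) had an unadjusted p under 0.05. DESeq2 called 6 genes, Rgs5, Gm13889, Mecom, Igfbp7 and Sparcl1 as lower and Ms4a4c as higher, and edgeR without a filter on low counts called 13. Leaving out irradiated 1 gave 6 calls and leaving out control 1 gave 3.

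The genes with the smallest unadjusted p among those at 20 CPM or more and with no overlap between groups are given as values. Oasl2, an antiviral oligoadenylate synthetase-like gene, was 51.9, 75.8, 50.4 and 67.2 CPM in irradiated 1 to 4 and 41.7, 34.5 and 35.1 CPM in control 1 to 3 (log2 fold change 0.69 ± 0.16, adjusted p = 1.00). Ms4a4c, a membrane protein of monocytes, was 69.9, 133, 101 and 128 CPM against 54.4, 54.5 and 58.6 CPM (0.90 ± 0.21, adjusted p = 1.00). Rtp4 (0.54), Cpq (0.42) and the immunoproteasome subunit Psmb9 (0.54) were the other 3 on that side.

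On the other side, Klf4, a transcription factor, was 356, 336, 449 and 316 CPM in irradiated and 548, 454 and 538 CPM in control members (-0.52 ± 0.13, adjusted p = 1.00), with Marchf3 (-0.55), Neat1 (-0.36), Sox4 (-0.77) and Csrp2 (-0.70) beside it. All 10 kept their sign within both technical sets, which choosing genes without overlap between groups fixed in advance. Groups did not overlap in 5.54% of the genes tested, 3.38% with the irradiated group higher.

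Among the 38 type I interferon genes, 34 had a fold change above 0 (51% of all genes tested did), the median was 0.24 beside 0.00 over all genes, 10 had an unadjusted p under 0.05 and 7 did not overlap between groups, but 0 passed the adjusted threshold. The 3 highest in level were Bst2 (898 against 679 CPM on average), Ly6e (886 against 598) and Ifi27l2a (748 against 558). The mean log2(CPM + 1) of the list was 5.43, 5.67, 5.36 and 5.54 in irradiated 1 to 4 and 5.43, 5.08 and 5.16 in control 1 to 3, so the groups overlapped. The irradiated mean exceeded the control mean by 0.31 in set 1 and 0.09 in set 2. The upstream window of Bst2, which encodes tetherin (chr8:71537473-71537722, minus strand, GRCm38.p6), is shown because it holds, in capitals, overlapping matches to the ISRE-type motif (GAAA, any 2 bases, then GAAA again, searched on both strands):
Bst2: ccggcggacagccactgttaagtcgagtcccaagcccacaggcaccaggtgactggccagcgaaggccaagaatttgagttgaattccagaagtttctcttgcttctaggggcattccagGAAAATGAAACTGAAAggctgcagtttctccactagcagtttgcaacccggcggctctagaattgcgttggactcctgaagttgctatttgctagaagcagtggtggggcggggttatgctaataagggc
Of the 29 type I genes with a window, 14 held that motif (48.3%) against 3.04% of all windows.

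Of the 22 type II interferon genes, 19 had a fold change above 0 (median 0.36), 5 did not overlap and 0 passed. Psmb8, an immunoproteasome subunit, averaged 244 against 168 CPM (0.51). Without the Slfn4 condition, 38 of 38 type I genes had a fold change above 0 (median 0.65) and 23 of 24 type II genes (median 0.66), still with 0 called. With the Slfn4 condition kept, the medians were 0.18 and 0.23 in the fit that had the technical set as a term. That fit was not run without the condition, which removed more cells in set 2 than in set 1.

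Class II genes had a median of 0.04 in the pooled fit and of 0.59 with the technical set as a term, where 8 of 8 lay above 0 and 0 passed. H2-Aa in members was 2107, 821, 488 and 556 CPM in irradiated 1 to 4 and 336, 1261 and 1761 CPM in control 1 to 3, and each irradiated member sum exceeded every control of its own set. Tissue-resident (0.02), microglia-associated (0.03), lysosomal (0.02) and scavenger genes (-0.01) had medians near 0. Monocyte genes had a median of 0.33 (7 of 9 above 0) and complement genes of 0.19 (10 of 12). The p53 targets had 0.18 (12 of 15) and Fc receptor and Ms4a genes 0.12 (9 of 10). None of these was called. With the technical set as a term these 4 medians were 0.07, 0.08, -0.09 and 0.10. Chemokine genes had a median of 0.21 while their mean log2(CPM + 1) was 0.04 lower in irradiated tumors.

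Of 23 dissociation stress genes, 0 lay above 0 (median -0.21) and 0 passed. In the fit with the technical set as a term 7 lay above 0, and again 0 passed. Among markers of other cells, fibroblast and pericyte genes summed to 0.1935 to 0.3639 CP10K in irradiated and 0.5015 to 0.8306 CP10K in control members, without overlap, and 4 of 4 tested lay below 0, as did 8 of 8 tumor-cell genes. Rgs5, a pericyte gene, was 0 to 1.36 CPM in irradiated and 7.94 to 28.5 CPM in control members. The genes called by DESeq2 as lower were of that low level, 0.402 to 3.53 CPM on average in irradiated members, and the part of RNA from other cells in them was not tested.

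The effect of irradiation in members was also set against that in Mrc1-negative C1q cells. The interaction passed for 0 of 8226 genes (0%), with 326 at an unadjusted p under 0.05 in edgeR. DESeq2 also called 0, with 168 at an unadjusted p under 0.05. In the edgeR fit, 32 of 38 type I interferon genes lay below 0 (median -0.33 beside 0.01 over all genes). So did 13 of 17 type II genes (-0.27) and 20 of 23 dissociation stress genes (-0.16), whereas 14 of 17 scavenger genes lay above 0 (0.11). With 26 to 179 Mrc1-negative C1q cells per tumor, 0 calls do not show that the 2 effects were alike.

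**Figure D5:**
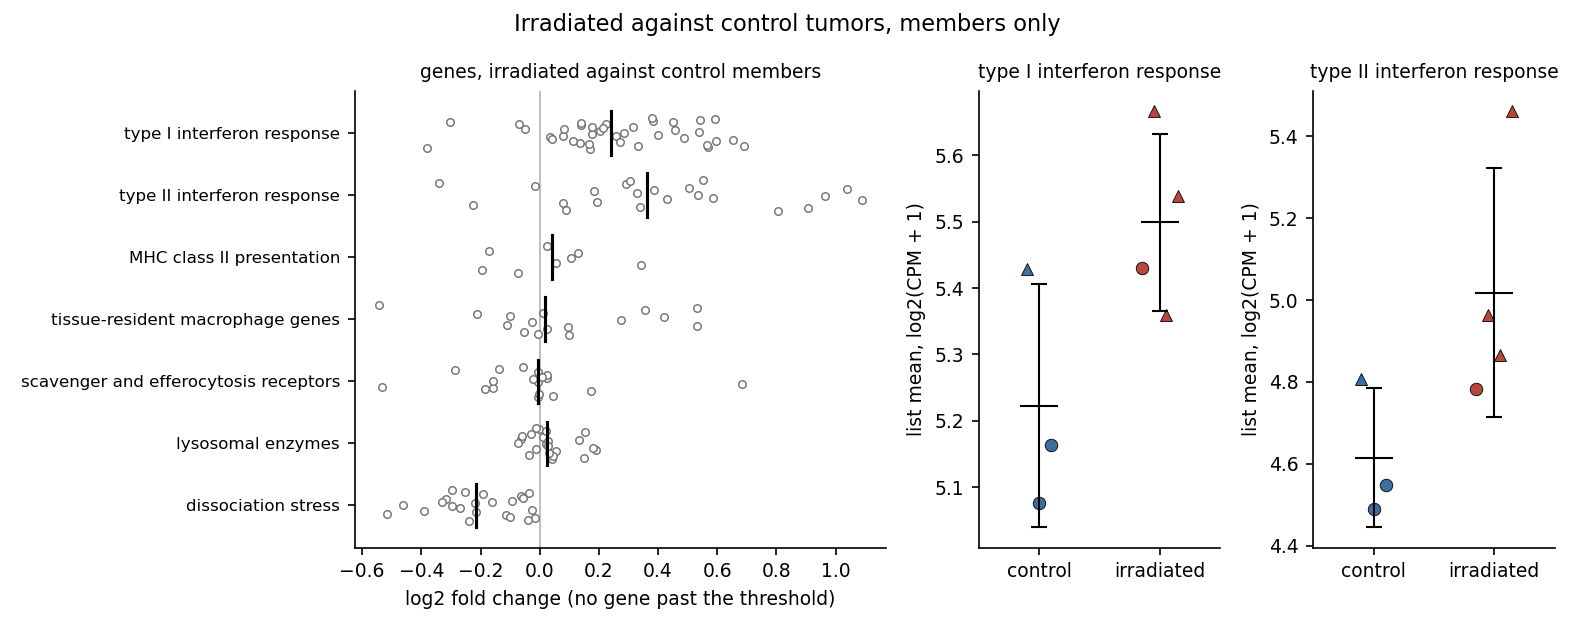
Irradiated against control tumors within members. The left panel shows log2 fold changes of the genes of 7 lists (bars are medians, no gene passed the adjusted threshold). The other panels show the mean log2(CPM + 1) of the type I and type II interferon lists per tumor, with group means ± SD (circles technical set 1, triangles set 2). Type I and type II medians are 0.24 and 0.36, and in both lists control 1 lies within the irradiated range.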

How the data were processed

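Single cells of 7 tumors were sequenced with a droplet assay that reads the 3′ ends of transcripts. For every tumor the authors deposited a matrix of raw UMI counts over 33696 genes, and the headers name Cell Ranger 8.0.0. The submitters' processing notes name Cell Ranger and Seurat 4.4, and the paper, which aligned to mm10, names an earlier Cell Ranger. Whether intronic reads were counted is not given in the sources used here. Libraries held 53496570 to 153044123 UMIs. Intervals cover counting error only.

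Counts were summed per tumor and cell group and tested with edgeR 4.0.16 (filterByExpr, TMM normalization, quasi-likelihood) in R 4.3.3, adjusted over all genes tested with a threshold of 0.05. Tumors were the replicates. Between-cell comparisons had the tumor as a block. For shares, a two-sided exact permutation test covered all 35 assignments of tumors. Genes that the rule used entered the fits and the adjustment, and were left out of the counts of genes tested and called. Levels are CPM of the summed counts, without TMM scaling.

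Members, gene lists and named genes were chosen with earlier results of these data known. Of 422 list symbols 421 were found. Named genes were the 12 with the largest increase and 8 with the largest decrease against Mrc1-negative C1q cells (8 and 6 against Ly6c2 monocytes) among genes called, at 50 CPM or more on the higher side and moving the same way in 7 tumors, with predicted (Gm, Rik), mitochondrial and ribosomal protein genes left out. For irradiation they were the 5 of smallest p in each direction at 20 CPM or more without overlap between groups. The 3 list members highest in level or fold and the 10 most variable genes were added. Some items are not reported here. Genes named with the class II and Ccl8 groups, and those called by DESeq2, were chosen after their values were seen.

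No doublet caller was run. The rule removes cells with T cell or tumor-gene UMIs, and 0 members were among the 5% deepest cells of a library. The rule does not give the unit of its Cxcl9 threshold, which was taken as UMIs. Fits were tested on simulated counts. Alternatives were other thresholds and depths, DESeq2 1.42.0, its size factors, no count filter, equal members per tumor, single tumors left out, a technical-set term and a replicate block. Leaving out the Slfn4 condition, limiting cells to 3000 to 10000 UMIs and using all other macrophage-gate cells were added after the data were seen.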

Additional observations from a re-analysis of the deposited data

Results flagged for a closer look

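Of 52 values of members checked in the 4 irradiated tumors, 2 had irradiated 1 far from the others (a gap to the nearest tumor that chance gives in about 1 of 20 groups). The share of members with 5 or more class II UMIs was 48.6% there and 12.1% to 17.9% in the other irradiated tumors. The mean log2(CPM + 1) of the lysosomal enzyme genes was 8.53 there and 8.67 to 8.68 in the others. Irradiated 1 is the one irradiated library of technical set 1, whose controls stood at 29.4% and 39.0% and at 8.46 and 8.58 for the same values. The part of the technical set in these differences was not tested.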

How the results depend on the processing

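Pooled over the technical sets, shares kept their direction under every alternative run. Leaving out single tumors gave differences of -8.61 to -1.91 points of all cells and of -28.0 to -10.48 points of macrophage-gate cells. On cells thinned to 3000 UMIs the difference in the share of all cells was -1.55 points and without the Slfn4 condition -1.86 points. The direction did not hold within sets. Within sets 1 and 2 the thinned gate gave 0.77 and 1.155 points of all cells and 6.85 and -12.4 points of macrophage-gate cells. With the technical set as a term they were -0.316 and -2.32 points. The labels do not say whether replicate numbers pair tumors. Same-numbered tumors correlated at -0.298, -0.0653 and -0.0555, which cannot decide it over so few tumors and with the technical sets not removed. With the replicate block the differences in shares were -2.92 and -10.48 points and 0 genes differed by irradiation.

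For irradiation, the 0 calls became 6 with DESeq2, 13 without a count filter and 2 with equal members per tumor, and ran from 0 to 6 with single tumors left out (6 without irradiated 1, 3 without control 1). The interaction gave 1 call without a count filter and 0 to 1 with single tumors left out. Against Mrc1-negative C1q cells, 780 calls became 420 with no tumor block, 1217 without the Slfn4 condition, 512 with cells of 3000 to 10000 UMIs and 4261 against all other macrophage-gate cells, and ran from 588 to 684 with single tumors left out. Against Ly6c2 monocytes they ran from 2233 to 3098. No fold change of the 44 named results reversed, and 11 of 339 alternative values against Mrc1-negative C1q cells lost their call, namely Ctla2a, Cd38, Fat3, Ms4a4c, Ly6a, Irf7 and S100a6 with no tumor block, Ctla2a, Fat3 and Il1r2 with the thinned gate and Vcam1 without the Slfn4 condition. Few members in irradiated 4 (164) and few monocytes in set 1 limit the precision there.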
